A study of Mus musculus with 40 samples.

Results

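The pancreas of mice that lose Mdm2 was compared with the pancreas of mice that keep it, 24 hours after p53 was activated. These were 8 of the 40 RNA-seq libraries of the study, chosen by their tissue label: 5 of the genotype Mdm2FM/- Cag-CreERTg (FMTg) and 3 of the genotype Mdm2+/- Cag-CreERTg (Tg). All 8 came from separate C57BL/6j mice aged 60 days, and all carried 1 missing Mdm2 allele and the Cag-CreERTg transgene, so the Tg mice are controls with a single working copy of Mdm2 and not wild-type mice. The other allele was FM in FMTg, the allele lost on activation according to the study's title, and wild type in Tg. CreER is a Cre recombinase fused to a ligand-binding domain of the estrogen receptor, and the Cag promoter drives it in most cell types, so the loss was not aimed at one pancreatic cell type. The labels do not give the sex of the mice, the activating ligand, or the part of Mdm2 that is removed. Of 18024 genes in the deposited table, 15262 had a mean level in the pancreas at least 1 log2 unit above the table's lowest value and were tested; 2762 were not, 701 of which had no read in any pancreas library. Adam32 and Mef2b, at 2.6534 and 2.6549, were the genes just inside this filter of 2.6532 and Cfap221 and Vnn3, at 2.6524 and 2.6517, those just outside.

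p53 is a transcription factor that stops the cell cycle, repairs DNA or kills the cell after stress. Mdm2 is a ubiquitin ligase that binds p53, blocks its transactivation domain and sends it to the proteasome, and the Mdm2 gene is itself switched on by p53, which closes a negative feedback loop. Most of the pancreas consists of acinar cells, which make and secrete digestive enzymes. Ducts carry the enzymes to the gut, and the islets of endocrine cells release insulin and glucagon into the blood.

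The p53 protein binds DNA as a tetramer, on a pair of half-sites that each hold a C and a G at fixed positions of the core. The promoters below are shown because they belong to genes that rose in the FMTg pancreas and hold the p53 consensus half-site near the start of transcription. They are a selection, all from genes on the p53 target lists described below, and other risers also held a half-site. They run from 250 bases before to 50 bases after a RefSeq transcription start (GRCm38.p6), 5′ to 3′ on the gene's own strand, and capitals mark the match. Cdkn1a (chr17:29090729-29091028, plus strand) has 2 exact half-sites 12 bases apart. Gtse1 (chr15:85859696-85859995, plus strand), Ccng1 (chr11:40755237-40755536, minus strand) and Inka2 (chr3:105705208-105705507, plus strand) have an exact half-site beside one with 1 mismatch, and Mdm2 (chr10:117710709-117711008, minus strand) has a single exact half-site at this start.
Cdkn1a: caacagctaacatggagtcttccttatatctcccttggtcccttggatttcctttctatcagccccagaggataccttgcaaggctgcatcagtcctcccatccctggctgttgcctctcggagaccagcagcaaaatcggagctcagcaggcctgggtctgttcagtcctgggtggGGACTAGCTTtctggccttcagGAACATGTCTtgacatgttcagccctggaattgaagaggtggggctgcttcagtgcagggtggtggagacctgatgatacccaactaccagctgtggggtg
Gtse1: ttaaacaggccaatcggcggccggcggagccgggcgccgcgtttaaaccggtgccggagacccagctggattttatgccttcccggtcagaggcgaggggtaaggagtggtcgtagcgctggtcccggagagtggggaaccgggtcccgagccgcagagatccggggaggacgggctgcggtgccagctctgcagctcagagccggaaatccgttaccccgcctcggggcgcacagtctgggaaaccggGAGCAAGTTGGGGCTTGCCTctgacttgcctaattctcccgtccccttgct
Ccng1: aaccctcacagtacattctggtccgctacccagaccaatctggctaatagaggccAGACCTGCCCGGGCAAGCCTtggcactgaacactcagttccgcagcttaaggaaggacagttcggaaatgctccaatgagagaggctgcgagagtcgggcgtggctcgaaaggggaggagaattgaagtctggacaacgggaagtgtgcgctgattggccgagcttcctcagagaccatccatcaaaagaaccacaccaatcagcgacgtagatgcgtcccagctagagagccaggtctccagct
Inka2: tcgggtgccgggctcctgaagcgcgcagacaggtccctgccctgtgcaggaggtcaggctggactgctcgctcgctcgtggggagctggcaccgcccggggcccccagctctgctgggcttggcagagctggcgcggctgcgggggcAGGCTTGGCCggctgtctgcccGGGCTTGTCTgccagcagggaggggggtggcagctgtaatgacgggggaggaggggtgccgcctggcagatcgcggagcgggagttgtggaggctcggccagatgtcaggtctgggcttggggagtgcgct
Mdm2: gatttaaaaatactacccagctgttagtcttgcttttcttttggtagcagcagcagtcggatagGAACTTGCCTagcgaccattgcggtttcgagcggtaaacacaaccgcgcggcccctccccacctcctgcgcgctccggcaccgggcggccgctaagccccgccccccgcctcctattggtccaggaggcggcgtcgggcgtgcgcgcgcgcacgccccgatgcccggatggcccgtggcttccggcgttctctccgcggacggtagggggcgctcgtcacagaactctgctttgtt
Of the 64 genes that rose (described below), 55 had a promoter in the RefSeq table, and 11 of these, 20% (95% Wilson interval 11.6 to 32.4%), held the p53 consensus half-site on either strand. Among all 12068 tested genes with such a promoter, 8.44% held it. A full site of 2 exact half-sites at most 13 bases apart was found for 1 riser, Cdkn1a, and for 6 of all tested genes (1.82% and 0.0497%). With 1 mismatch allowed in each half-site, 5 risers (9.09%) and 385 of all tested genes (3.19%) held a full site. Among these 5 risers was the alpha-globin gene Hba-a1, with 1 mismatch in each half-site. Exoc4 and Fmo2, risers on no list, held an exact half-site. Genes that rose had 1.42 promoters per gene in the table and all tested genes 1.27. These matches describe letters in a 300-base window and no binding was measured.

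The libraries held 7.16 to 13.9 M reads (M, mega). FMTg replicates 4 and 5, from the 2 mice with the lowest ID numbers, stood apart: thinned to 7.16 M reads they detected 12004 and 13770 genes, while the remaining 6 detected 15009 to 16071 (all FMTg against Tg, exact permutation p = 0.554, two-sided). Their acinar enzyme genes took 70.6% and 65.7% of reads, against 41.2 to 55.8% elsewhere. FMTg replicate 3 held 0.0363% of its reads in enterocyte genes and 0.0643% in hepatocyte genes, against at most 0.00402% and 0.0108% in the other 7 libraries. Reads on 4 Y-linked genes were 1286, 323 and 697 in FMTg replicates 1, 4 and 5 and at most 38 in the other 5 libraries, so no Tg library had them at that level. Sex and genotype therefore cannot be fully told apart where all libraries are compared. Mitochondrial genes took 0.188 to 0.217% of reads in Tg, 0.196% in FMTg replicate 1 and 0.292, 0.882, 0.34 and 0.463% in FMTg replicates 2 to 5, and its part in the results was not tested. The counts given below were repeated without these libraries.

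Genes on each of the 6 lists of p53 targets rose in the FMTg pancreas, from feedback regulators to cell cycle arrest, apoptosis, DNA repair and metabolism. Altogether 68 genes were called (0.446% of those tested), of which 64 rose (0.419%), 18 of them more than 4-fold, and 4 fell (0.0262%). Of these 68, 24 were on lists of p53 target genes and all 24 rose. Trp53inp1, Psrc1, Eda2r, Phlda3, Zmat3 and Gtse1, on p53 lists, and Fat1 and Rnf169, on no list and named after their values were seen, passed in each of the 8 fits that left out 1 library. The other 60 genes lost their call in at least 1 of these fits. In all 68 genes the 5 FMTg libraries lay entirely above or entirely below the 3 Tg libraries. Over all genes tested, 4.68% had every FMTg library above every Tg library and 5.05% had every one below, and the median change was -0.05 on the log2 scale. A gene was called when limma's Benjamini-Hochberg adjusted p was under 0.05; without adjustment 1285 genes (8.42%) were under 0.05, 741 of them higher (4.86%) and 544 lower (3.56%). The FMTg mean was above the Tg mean in 45.4% of genes. These shares over all genes tested are the background for the counts of each list below.

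The number of calls depended on single libraries and on the limma setting. Without Tg replicate 1, 2 or 3 it was 9, 9 and 25, and without FMTg replicate 1, 2 or 5 it was 29, 42 and 43. Without FMTg replicate 3 it was 67 and without FMTg replicate 4 it was 93. With all libraries but without limma's trend of variance with level it was 10. Without FMTg replicates 4 and 5 it was 109, of which 98 rose, and 55 of the 68 genes were among them. A fit without FMTg replicates 3, 4 and 5 was added after the data were seen and left only FMTg replicates 1 and 2. There the number of calls was 183, of which 160 rose, and 65 of the 68 were among them. Results of this fit given below carry the same limit. In the 5 mice that also gave an ovary library (all Tg and FMTg replicates 2 and 3), where no library was high in Y-linked reads, 2 genes passed, Trp53inp1 and Psrc1, and all 68 kept their direction.

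**Figure D1:**
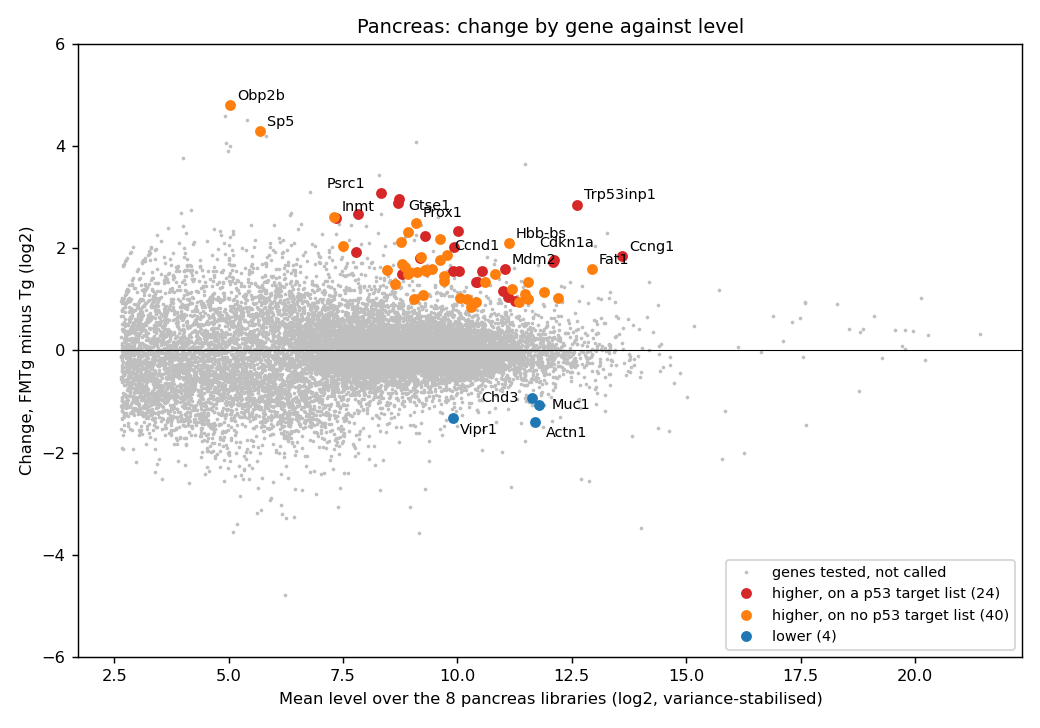
Change in the pancreas (FMTg minus Tg, log2) against the mean level over the 8 libraries (log2, variance-stabilised), 1 point per tested gene. Red points are the 24 p53 list genes that rose, orange the 40 other genes that rose and blue the 4 that fell; of the genes that rose, Obp2b and Sp5 have the largest changes, at low levels.

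Mdm2 itself carried 979, 864 and 1357 normalised reads in Tg replicates 1 to 3 and 4014, 3718, 3774, 2822 and 2005 in FMTg replicates 1 to 5. A normalised read is a read count divided by the authors' size factor of its library; it is not divided by gene length, so levels are compared between libraries and not between genes. The FMTg libraries all lay above the Tg libraries, with replicates 4 and 5 the lowest of them. The Mdm2 transcript rose by 1.59 ± 0.25 (log2 change ± SE, here and below), or 3.01-fold (adjusted p = 0.0286; exact permutation p = 0.0179, two-sided, the smallest that 56 divisions of the libraries allow). The call was lost in 6 of the 8 fits that left out 1 library, those without any Tg replicate or without FMTg replicate 1, 2 or 3, with adjusted p up to 0.19. A total over the gene (chr10:117688875-117710758, GRCm38) includes reads from exons outside any deletion, so this value does not check the loss of Mdm2 protein. Trp53, the gene of p53, had 308, 299 and 276 in Tg and 260.1, 418, 232, 259 and 295 in FMTg. The groups overlapped, and its difference was -0.04 ± 0.25 (adjusted p = 0.976; exact permutation p = 0.857).

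The 6 lists of p53 target genes together held 87 genes, of which 86 were tested, 24 rose (27.9%, against 0.419% of all genes tested) and 0 fell by limma. In 39 of the 86 (45.3%) every FMTg library was above every Tg library, in 2 every one was below, and the median change was 0.68. At an unadjusted p under 0.05, 39 were higher and 4 lower, and voom on the recovered reads called 17 higher and 0 lower. The 24 rises became 6, 6, 13, 12 and 14 without Tg replicate 1, 2 or 3 or FMTg replicate 1 or 2, and 19, 23 and 19 without FMTg replicate 3, 4 or 5. They became 6 without limma's trend of variance with level, 2 in the mice with an ovary library, and 31 without FMTg replicates 3, 4 and 5. These lists collect genes known as p53 targets in other systems, and members and lists were chosen with results of these data known, so the counts describe the pancreas and are no independent evidence.

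Among 11 genes of the p53 feedback list 3 rose, 0 fell, and the median change was 0.40. Trp53inp1 encodes a stress protein that acts with kinases on p53. It carried 1804, 1527 and 2172 in Tg and 14556, 12566, 10926, 13443 and 14777 in FMTg, a rise of 2.86 ± 0.16 (adjusted p = 0.000175) or 7.24-fold, the smallest p in the pancreas. The FMTg values lay close together, and the gap to the highest Tg library was wider than their range. Ccng1, the gene of cyclin G1, which recruits a phosphatase to Mdm2, had 5017, 5026 and 6927 in Tg and 18803, 15968, 17445, 22135 and 28311 in FMTg. It rose by 1.85 ± 0.22 (adjusted p = 0.00772), with FMTg replicates 4 and 5, the lowest of their group for Mdm2, now the highest. The Mdm2 partner Mdm4 had 1945, 1859 and 2027 in Tg and 3924, 4104, 3474, 2458 and 2148 in FMTg, a difference of 0.68 ± 0.22 (adjusted p = 0.387) that did not pass although the groups did not overlap. Ppm1d, a phosphatase that acts on p53, likewise stayed apart without passing, at 206 to 271 in Tg and 301 to 375 in FMTg (0.46 ± 0.21 (adjusted p = 0.625)).

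Of 14 tested genes of cell cycle arrest 4 rose, 0 fell, and the median was 0.35. Psrc1 encodes a protein that binds spindle microtubules. It had 75.9, 72.2 and 88.7 in Tg and 881, 617, 637, 727 and 730.2 in FMTg, with a rise of 3.08 ± 0.22 (adjusted p = 0.000652) or 8.47-fold and little spread in either group. Gtse1, another microtubule-binding protein, which also moves p53 out of the nucleus, had 88.2, 108 and 149 in Tg and 1194, 1028, 953, 819 and 527 in FMTg and rose by 2.89 ± 0.29 (adjusted p = 0.00494). As for Mdm2, FMTg replicates 4 and 5 were the lowest of their group and still above Tg. Cdkn1a, the gene of the CDK inhibitor p21 that halts cells before S phase, had 1935, 1764 and 2508 in Tg and 6917, 6113, 4109, 8748 and 10905 in FMTg. The rise of 1.77 ± 0.29 (adjusted p = 0.0337) was smaller than that of Psrc1 and its FMTg values were more spread, with replicates 4 and 5 the highest; it passed in 1 of the 8 fits without 1 library. Plk2, a kinase of centriole duplication, had 607, 1096 and 647 in Tg and 1748, 1516, 1819, 2156 and 2494 in FMTg (1.34 ± 0.23 (adjusted p = 0.0469)) and passed in 0 of those 8 fits. Rprm, which holds cells in G2, had 5.16 to 12.3 in Tg and 22.9 to 67.8 in FMTg and a difference of 1.88 ± 0.60 (adjusted p = 0.366). The arrest gene Btg2, at 3888, 5732 and 6376 in Tg and 5764, 6681, 3405, 2544 and 2844 in FMTg, overlapped between the groups.

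Of 19 apoptosis genes 6 rose (against 0.419% of all genes tested) and 0 fell, and the median was 1.10. In 13 of them every FMTg library was above every Tg library, against 4.68% of all genes tested. Eda2r, a receptor of the TNF family, had 326, 315 and 490.4 in Tg and 2142, 1856, 1583, 2144 and 1847 in FMTg and rose by 2.35 ± 0.19 (adjusted p = 0.00145) or 5.08-fold. The 5 FMTg libraries lay close together, above all 3 Tg libraries. Phlda3, which competes with Akt for membrane lipids, had 197, 227 and 278 in Tg and 1141, 1179, 822, 1139.7 and 1412 in FMTg and rose by 2.25 ± 0.21 (adjusted p = 0.00333). FMTg replicate 3 was the lowest of its group. Zmat3, an RNA-binding zinc finger protein, had 1990.3, 1818 and 2431 in Tg and 7038, 6675, 5196, 7676 and 8018 in FMTg and rose by 1.73 ± 0.17 (adjusted p = 0.00444). Pidd1 is the scaffold on which caspase-2 is activated. It had 39, 46.4 and 56.1 in Tg and 453, 346, 301, 327 and 198 in FMTg, a rise of 2.60 ± 0.34 (adjusted p = 0.0142) or 6.07-fold from a low level, and passed in 3 of the 8 fits. Aen, a nuclease, had 710, 717 and 864 in Tg and 1975, 1796, 1461, 2557 and 2013 in FMTg and rose by 1.34 ± 0.18 (adjusted p = 0.0172), and the membrane protein gene Ei24 rose by 1.04 ± 0.15 (adjusted p = 0.0197) from 1176 to 1628 in Tg and 2531 to 3265 in FMTg.

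Several apoptosis genes were separated between the groups without passing. The death receptor gene Tnfrsf10b had 115, 103 and 213 in Tg and 459, 495, 423, 462 and 335 in FMTg (1.62 ± 0.29 (adjusted p = 0.0538)). Apaf1, the core of the apoptosome, had 449, 464 and 577 in Tg and 1293, 1260.4, 1039, 1109 and 742 in FMTg (1.10 ± 0.21 (adjusted p = 0.0719)); without FMTg replicates 4 and 5 its adjusted p was 0.0185. The BH3-only gene Bbc3 (Puma) had 82.1, 67 and 46.7 in Tg and 258, 304, 172, 1251 and 452 in FMTg, with FMTg replicate 4 the highest. Its difference was 2.46 ± 0.57 (adjusted p = 0.163). The effector gene Bax had 349, 227 and 502 in Tg and 1106, 918, 637, 524 and 619 in FMTg (1.09 ± 0.32 (adjusted p = 0.299)) and the death receptor gene Fas 189, 186 and 262 in Tg and 706, 489, 394, 333 and 349 in FMTg (1.04 ± 0.29 (adjusted p = 0.26)). In both, FMTg replicate 1 was the highest library. By contrast Pmaip1 (Noxa), at 53.3, 25.8 and 35 in Tg and 74.9, 96.7, 224, 0 and 43 in FMTg, and Bid, at 107, 41.3 and 91.1 in Tg and 76.9, 110.2, 309, 0 and 51.5 in FMTg, overlapped and had 0 reads in FMTg replicate 4.

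**Figure D2:**
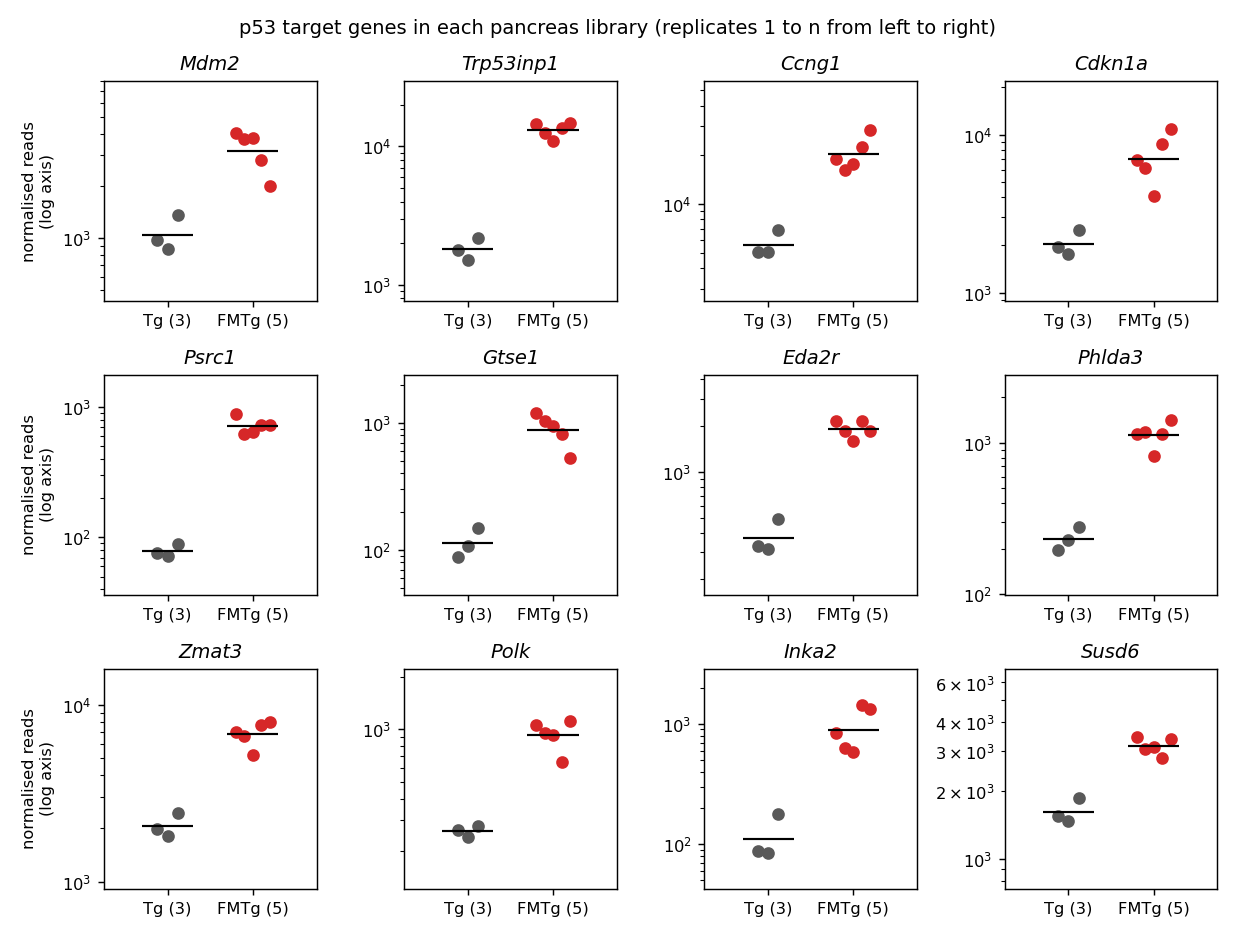
Normalised reads of 12 p53 target genes in each pancreas library (log axes; grey, 3 Tg; red, 5 FMTg; bars, means of the log2 normalised reads). In each panel all 5 FMTg libraries lie above all 3 Tg libraries, while replicates 4 and 5 are the lowest FMTg libraries for Mdm2 and Gtse1 and the highest for Ccng1, Cdkn1a and Inka2.

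DNA repair genes were divided: 3 of 12 rose, 0 fell, and the list's median was -0.09, and 0.12 without FMTg replicates 4 and 5. Polk, a polymerase that copies past damaged bases, had 263, 242 and 278 in Tg and 1066, 949, 925, 647 and 1117 in FMTg and rose by 1.80 ± 0.21 (adjusted p = 0.0077). Ercc5, the nuclease that cuts 3′ of a lesion in nucleotide excision repair, had 396, 477 and 584 in Tg and 1756, 1386, 1376, 1472 and 1188 in FMTg and rose by 1.56 ± 0.18 (adjusted p = 0.0077). Mgmt, which removes alkyl groups from guanine, had 199, 222 and 259 in Tg and 735, 539, 484, 930.3 and 650.1 in FMTg and rose by 1.50 ± 0.24 (adjusted p = 0.0344). These 3 were raised in all 5 FMTg libraries, while the other 9 members lay between -1.27 and 0.26. Xpc and Ddb2, which recognise damaged DNA, had 616 to 1142 in Tg and 449.6 to 696 in FMTg and 215 to 359.7 in Tg and 145 to 277 in FMTg, and differed by -0.54 ± 0.23 (adjusted p = 0.579) and -0.32 ± 0.30 (adjusted p = 0.825). Pcna, the replication clamp, had 546, 516 and 577 in Tg and 432, 493, 453, 197 and 347 in FMTg, with every FMTg library below every Tg library (-0.57 ± 0.30 (adjusted p = 0.683)).

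Of 17 metabolic and signalling targets 6 rose, 0 fell, and the median was 0.67. Inka2, an inhibitor of the kinase Pak4, had 88.2, 85.1 and 177 in Tg and 843, 628, 583, 1442 and 1320.2 in FMTg, a rise of 2.96 ± 0.38 (adjusted p = 0.0116) or 7.77-fold with replicates 4 and 5 the highest. Ddit4l and Sesn2 restrain mTORC1, the kinase complex that drives growth. Ddit4l had 107, 38.7 and 65.4 in Tg and 554, 423, 593, 518 and 241 in FMTg and rose by 2.66 ± 0.40 (adjusted p = 0.0245), and Sesn2 had 503, 451 and 649 in Tg and 1462, 1591, 1204, 2483 and 1383 in FMTg and rose by 1.56 ± 0.24 (adjusted p = 0.0245). Ddit4, the close relative of Ddit4l, had 2126, 905 and 1766 in Tg and 2463, 1533, 1284, 1503 and 1065 in FMTg and the groups overlapped (0.00 ± 0.32 (adjusted p = 0.997)). Lpin1, a phosphatidate phosphatase, had 806, 683 and 785 in Tg and 2800.4, 1925, 2567, 1842 and 2194 in FMTg and rose by 1.56 ± 0.17 (adjusted p = 0.0071). Dcxr, a sugar and carbonyl reductase, had 431, 330.1 and 444 in Tg and 1610.1, 1166, 1660.1, 2439.6 and 1609 in FMTg and rose by 2.03 ± 0.23 (adjusted p = 0.00752). Cpt1c, a carnitine palmitoyltransferase best known from neurons, rose by 1.92 ± 0.31 (adjusted p = 0.0337) from 61.9 to 117 in Tg and 263 to 458 in FMTg.

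Among 13 secreted and membrane targets 2 rose and 0 fell (median 0.73). Susd6, a membrane protein, had 1547, 1472 and 1852 in Tg and 3453, 3056, 3119, 2785 and 3388 in FMTg and rose by 0.96 ± 0.13 (adjusted p = 0.0172), and Ephx1, the epoxide hydrolase of the endoplasmic reticulum, had 1159, 1101 and 1476 in Tg and 2420.1, 2304, 2418, 3709 and 3308 in FMTg and rose by 1.17 ± 0.20 (adjusted p = 0.0405). The stress hormone gene Gdf15 had 187, 111 and 392 in Tg and 1044, 731, 536, 1651 and 1008 in FMTg (2.16 ± 0.44 (adjusted p = 0.0941)) and the cytokine gene Lif 36.9, 54.2 and 109.8 in Tg and 292, 246, 136, 185 and 238 in FMTg (1.70 ± 0.43 (adjusted p = 0.202)). Every FMTg library was above every Tg library in both, though Tg replicate 3 was the highest control. Dram1, a lysosomal membrane protein, had 673, 647 and 740.3 in Tg and 481, 493, 335, 154 and 221 in FMTg, with all FMTg libraries below all Tg libraries (-1.14 ± 0.37 (adjusted p = 0.387)).

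Outside the p53 lists 40 genes rose, 37 of them on none of the 34 lists. The largest rise was that of Obp2b, an odorant-binding protein of the lipocalin family, at 2.05, 0 and 0 in Tg and 53.2, 184, 27.8, 154 and 306 in FMTg normalised reads. In reads this is 1 for Tg and 271 for FMTg, which corrected for depth is 164 times as many (exact interval 29.3 to 6518, counting error only). Its log2 change was 4.80 ± 0.81 (adjusted p = 0.0412), and it passed in 1 of the 8 fits that left out 1 library, not without FMTg replicates 4 and 5 (adjusted p = 0.0693) and not by voom (adjusted p = 0.165). Sp5, a zinc finger factor induced by Wnt signalling, had 2.05, 2.58 and 4.67 in Tg and 86.7, 151, 81.7, 400.4 and 180.4 in FMTg, so it was near the floor in Tg and clearly detected in FMTg, most of all in replicate 4 (4.29 ± 0.61 (adjusted p = 0.0182)). It passed in 2 of those 8 fits and not by voom (adjusted p = 0.062). Of the other 12 tested genes on the Wnt list 0 were called by limma or voom, and at an unadjusted p under 0.05 only Ctnnb1 (beta-catenin), of them, was lower (-0.46 ± 0.14 (adjusted p = 0.335)). Without FMTg replicates 4 and 5, 5 of the 13 tested, Sp5 included, were higher at that p and 2 lower. The shares of all genes tested were 8.49% and 6.27%. The list's median was 0.22 there, against 0.58 with all libraries. The Wnt target Axin2 had 525, 446 and 743 in Tg and 743, 912, 392, 906 and 1712 in FMTg (0.58 ± 0.40 (adjusted p = 0.772)), the receptor gene Lgr5 63.6, 30.9 and 21 in Tg and 72.9, 118, 91.5, 80.1 and 45.8 in FMTg (1.04 ± 0.51 (adjusted p = 0.655)) and the inhibitor gene Nkd1 59.5, 28.4 and 44.4 in Tg and 65, 81.2, 88.2, 92.4 and 135 in FMTg (0.99 ± 0.45 (adjusted p = 0.602)). Prox1, a homeodomain factor of pancreatic progenitors and lymphatic vessels, had 162, 186 and 189 in Tg and 834, 1166, 603, 1152 and 1776 in FMTg and rose by 2.50 ± 0.31 (adjusted p = 0.0106). The FMTg values differed by nearly the same factor among themselves as the lowest FMTg library differed from the highest Tg library.

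The other named rises were of genes on none of the lists. Fat1, an atypical cadherin, had 4297, 3623 and 3842 in Tg and 11344, 12703, 10792, 13061 and 11295 in FMTg and rose by 1.59 ± 0.13 (adjusted p = 0.00151) with little spread in either group. Rnf169, which binds ubiquitylated histones at DNA breaks, had 901, 763 and 929.5 in Tg and 2477, 2259.9, 2150.3, 2027 and 2045 in FMTg and rose by 1.34 ± 0.13 (adjusted p = 0.00444). Gria3, a subunit of AMPA glutamate receptors, had 244, 273 and 397 in Tg and 1618, 1394, 1408, 862 and 1827 in FMTg (2.19 ± 0.26 (adjusted p = 0.00812)), with FMTg replicate 4 the lowest of its group. Crip2, a small LIM domain protein, had 229.8, 253 and 299 in Tg and 883, 849, 752, 1380 and 934 in FMTg (1.83 ± 0.22 (adjusted p = 0.00812)) and in it replicate 4 was the highest. Inmt, a methyltransferase of small amines, had 55.4, 43.8 and 37.4 in Tg and 292, 213, 402, 339 and 321 in FMTg (2.61 ± 0.33 (adjusted p = 0.0105)). Ckmt1, the mitochondrial creatine kinase, had 373, 304 and 348 in Tg and 1056, 1108, 1256, 924 and 916 in FMTg (1.60 ± 0.17 (adjusted p = 0.00573)), again without overlap. Trim7, a ubiquitin ligase, rose by 2.13 ± 0.31 (adjusted p = 0.0197) from 126 to 231 in Tg and 541 to 1144 in FMTg, and the phosphatase gene Ptpdc1 by 2.03 ± 0.32 (adjusted p = 0.0316) from 61.9 to 75.9 in Tg and 201 to 384 in FMTg. Zfp750, a factor of epithelial differentiation, rose by 1.69 ± 0.26 (adjusted p = 0.0264). The oxygenase genes Fmo2, a flavin monooxygenase, and Cdo1, cysteine dioxygenase, rose by 1.76 ± 0.30 (adjusted p = 0.0457) and 1.64 ± 0.27 (adjusted p = 0.0358).

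Cyclin D1, which drives cells from G1 into S phase, rose beside the arrest genes. Its gene Ccnd1 had 351, 464 and 350.3 in Tg and 1021, 1100, 2861, 1546 and 1157 in FMTg, a rise of 1.87 ± 0.32 (adjusted p = 0.0457). The highest was FMTg replicate 3, the library with the largest shares of reads on enterocyte and hepatocyte genes. Whether its content of other cells had a part in this value was not tested. Ccnd1 passed in 1 of the 8 fits that left out 1 library, and its adjusted p was 0.104 without FMTg replicates 4 and 5, 0.0949 by voom and 0.0146 without FMTg replicates 3, 4 and 5. Mitotic spindle genes had 0 calls among 23 tested by limma and by voom, 0 at an unadjusted p under 0.05, and a median of -0.70, which was 0.41 without FMTg replicates 4 and 5. Of 19 DNA replication genes 0 were called by either tool and 1 was higher and 0 lower at an unadjusted p under 0.05. That gene was Rrm2, a subunit of ribonucleotide reductase, at 144, 268 and 322 in Tg and 755, 557, 493, 1115 and 427 in FMTg (1.42 ± 0.36 (adjusted p = 0.217)).

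Only 4 genes fell. Vipr1, the receptor for vasoactive intestinal peptide that stimulates secretion, had 1389, 1815 and 1861 in Tg and 713, 864, 528, 678 and 610 in FMTg and fell by 1.31 ± 0.19 (adjusted p = 0.0197). Muc1, a membrane mucin on the apical face of epithelia, had 5236, 6545 and 5185 in Tg and 3262, 2449, 2019.5, 2877 and 2861 in FMTg and fell by 1.08 ± 0.17 (adjusted p = 0.0337). Actn1, an actin crosslinker, had 4598, 6480.2 and 7539 in Tg and 2660.5, 3277, 2214, 1645 and 1959 in FMTg and fell by 1.41 ± 0.24 (adjusted p = 0.0453), and Chd3, a remodeller of chromatin, had 4151, 4874 and 5222 in Tg and 2743, 2407, 3024, 2113 and 2165 in FMTg and fell by 0.94 ± 0.16 (adjusted p = 0.0405). In every one the groups were apart, with falls of 1.91-fold (Chd3) to 2.66-fold (Actn1). None of the 4 passed without FMTg replicates 4 and 5 (adjusted p 0.0567 to 0.088), though each kept its direction.

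Acinar enzyme genes dominated all 8 libraries of this labelled pancreas, and none passed the test. The 29 list genes in the table took 46.6 to 54.9% of reads in Tg and 41.2 to 70.6% in FMTg. In bulk tissue fewer cells of a type and less RNA per cell cannot be told apart. For very abundant enzymes the limma SE exceeded the spread of the libraries. It was 2.40 for Ctrb1, with standard deviations of 0.30 in Tg and 0.92 in FMTg, and 1.36 for Cela1, with 0.33 and 0.41. For such genes only a very large change could have passed, so the lack of a call does not show that they were unchanged. Of 29 tested enzyme genes 0 were called by limma or voom; at an unadjusted p under 0.05 limma had 2 higher and 0 lower, and the median of 0.39 was -0.13 without FMTg replicates 4 and 5. The 2 were trypsinogen genes. Prss1 had 43.1, 289 and 49 in Tg and 679.9, 1127, 614, 3505 and 5564 in FMTg, a difference of 4.08 ± 0.84 (adjusted p = 0.102) in which every FMTg library was above every Tg library and replicates 4 and 5 were the highest. Without those 2 libraries the difference was 3.08 ± 0.67 (adjusted p = 0.124). Prss3 had 2401, 8577 and 2352 in Tg and 9184, 13499, 7499.7, 30341 and 65513 in FMTg (2.30 ± 0.72 (adjusted p = 0.353)), with Tg replicate 2 above FMTg replicate 3. Mouse trypsinogens are a family of close copies, so reads could be divided among them. The trypsin inhibitor Spink1 had 14616, 25578 and 11448 in Tg and 15979, 11984, 12478, 12555 and 12343 in FMTg, with overlap (-0.32 ± 0.25 (adjusted p = 0.794)).

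Regulators of acinar cells were mostly not separated, with 0 of 18 called higher and Vipr1 alone called lower (median 0.12, and -0.28 without FMTg replicates 4 and 5). Xbp1, the transcription factor that builds up the secretory apparatus, had 42417, 59655 and 49955 in Tg and 23966, 24961, 13746, 13590 and 11598 in FMTg, and all FMTg libraries were below all Tg libraries (-1.59 ± 0.30 (adjusted p = 0.0719)). The acinar factors Ptf1a, at 367, 593 and 238 in Tg and 233, 253, 158, 345 and 309 in FMTg, Nr5a2, at 2087, 3259 and 2006 in Tg and 2339, 2279, 1356, 1522 and 1789.8 in FMTg, and Bhlha15 (Mist1), at 2134, 3729 and 2109 in Tg and 3756, 2693, 2619, 7208 and 6263 in FMTg, overlapped between the groups. Their differences were -0.56 ± 0.35 (adjusted p = 0.749), -0.40 ± 0.23 (adjusted p = 0.726) and 0.69 ± 0.37 (adjusted p = 0.699). Of 17 genes of the unfolded protein response 0 were called by limma or voom, and 4 were higher and 1, Xbp1, lower at an unadjusted p under 0.05 (median 0.52). Calr, a chaperone of the endoplasmic reticulum, had 6104, 6225 and 6418 in Tg and 6860.1, 8896, 8848, 8619 and 16329 in FMTg (0.60 ± 0.25 (adjusted p = 0.551)).

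Of 18 duct genes 0 were called higher and 1, Muc1, lower, and the median was 0.15. At an unadjusted p under 0.05 by limma, 4 were higher and 5 lower. In 3 other duct genes every FMTg library was above every Tg library, against 4.68% of all genes tested. Spp1 (osteopontin) had 2679.8, 2883 and 4015 in Tg and 8709, 10151, 11281, 5015 and 6549 in FMTg (1.35 ± 0.27 (adjusted p = 0.0923)) and passed without FMTg replicates 4 and 5 (1.67 ± 0.18, adjusted p = 0.0163). Pkhd1, the ciliary protein fibrocystin, had 1005, 1527 and 1112 in Tg and 2306, 2898, 7421, 3567 and 3789 in FMTg (1.62 ± 0.33 (adjusted p = 0.102)), and Bicc1, an RNA-binding protein of cystic disease, had 539.6, 526 and 535 in Tg and 889, 1129, 1804, 1010.3 and 1947 in FMTg (1.26 ± 0.27 (adjusted p = 0.117)). In Pkhd1 FMTg replicate 3 was the highest by far, and without that library the difference was 1.36 ± 0.21 (adjusted p = 0.0354). In 4 duct genes, Muc1, Clu, the keratin gene Krt18 and Epcam, every FMTg library was below every Tg library, against 5.05% of all genes tested. For Epcam the difference was -0.62 ± 0.18 (adjusted p = 0.309). Clu (clusterin) had 72130, 109310 and 122820 in Tg and 53909, 44656, 34695, 42515 and 44024 in FMTg (-1.18 ± 0.28 (adjusted p = 0.165)) and Krt18 10403, 14428 and 18613 in Tg and 9881, 8707, 6178, 6493 and 7609 in FMTg (-0.88 ± 0.23 (adjusted p = 0.217)).

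Genes of pancreatic injury and regeneration gave no call and took a smaller share of reads in FMTg. Of 21 tested 0 were called by limma or voom, 2 were higher and 5 lower at an unadjusted p under 0.05, and the median was -0.41. Together they took 3.23 to 3.36% of reads in Tg, 2.03 to 2.19% in FMTg replicates 1 to 3 and 0.326 and 0.391% in replicates 4 and 5. The Reg family of secreted lectins, which acinar cells make under stress, accounted for most of this. Reg1 had 386660, 458920 and 309750 in Tg and 283290, 200180, 191470, 72646 and 64428 in FMTg (-1.46 ± 0.62 (adjusted p = 0.57)), Reg2 200430, 223450 and 150110 in Tg and 104260, 135550, 77353, 10430 and 19642 in FMTg (-2.01 ± 0.81 (adjusted p = 0.532)) and Reg3a 18633, 36326 and 17329 in Tg and 9747, 15177, 9884, 739 and 793 in FMTg (-2.55 ± 1.03 (adjusted p = 0.54)). Each had all FMTg libraries below all Tg libraries, by a wide margin only in replicates 4 and 5. The Reg genes are close copies of each other. Lcn2, an acute-phase lipocalin, had 12638, 12538 and 47993 in Tg and 11809, 14406, 3738, 382 and 1947 in FMTg, with overlap (-2.51 ± 1.07 (adjusted p = 0.57)).

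**Figure D3:**
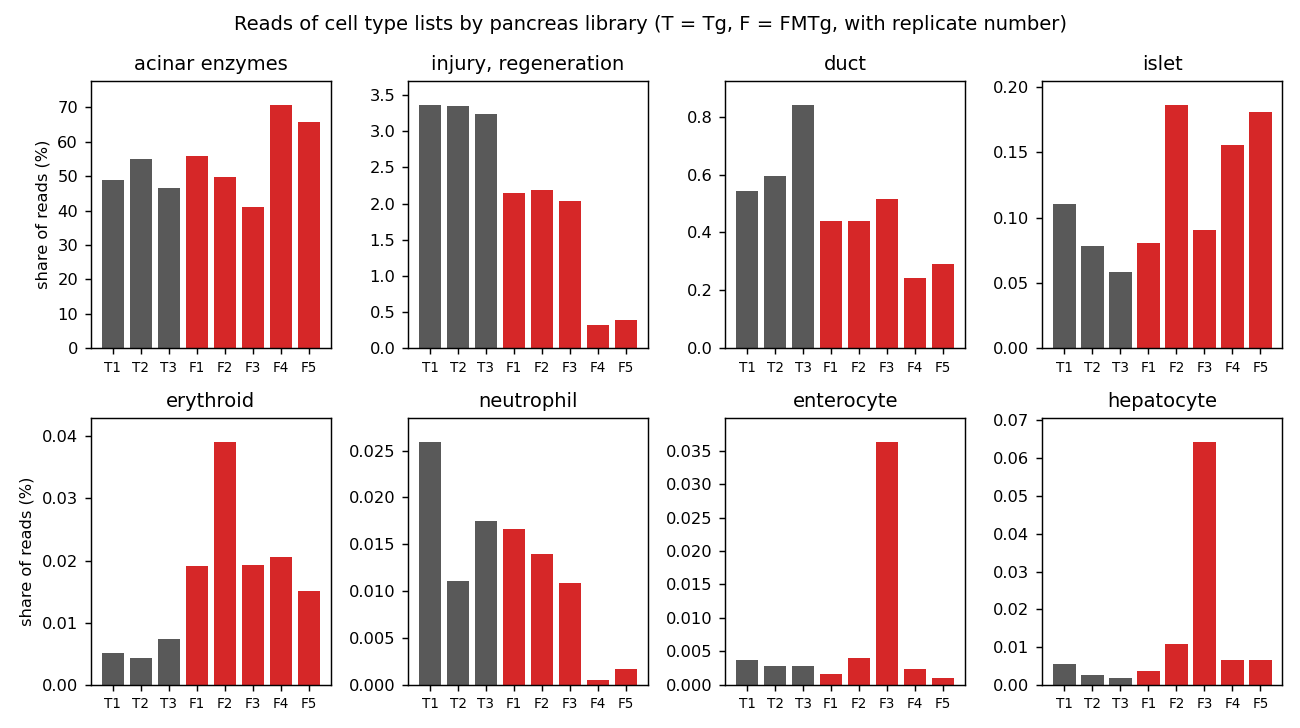
Share of reads (%) taken by 8 gene lists in each pancreas library (grey, Tg replicates 1 to 3; red, FMTg replicates 1 to 5; bars start at 0). Injury and regeneration genes are lower in every FMTg library and lowest in replicates 4 and 5, erythroid genes are higher in every FMTg library, and enterocyte and hepatocyte genes stand out in FMTg replicate 3.

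Red blood cell genes together took a larger share of reads in every FMTg library than in any Tg library. Of 7 erythroid genes 2 rose (against 0.419% of all genes tested), 0 fell, and the median was 2.08. In 4 of them every FMTg library was above every Tg library, against 4.68% of all genes tested. The beta-globin gene Hbb-bs had 786, 887 and 1018 in Tg and 3062, 5952, 2281, 5027 and 4001 in FMTg and rose by 2.10 ± 0.29 (adjusted p = 0.017), and the alpha-globin gene Hba-a1 had 137, 139 and 259 in Tg and 1029, 1152, 451, 856 and 1091 in FMTg and rose by 2.31 ± 0.35 (adjusted p = 0.0242). Hba-a2, which is nearly identical to Hba-a1 so that reads between them are uncertain, had 78, 79.9 and 100.4 in Tg and 193, 516, 243, 604 and 143 in FMTg (1.70 ± 0.49 (adjusted p = 0.283)), and the red cell anion exchanger Slc4a1 had 22.6, 12.9 and 25.7 in Tg and 142, 101, 259.8, 579 and 37.2 in FMTg (2.65 ± 0.77 (adjusted p = 0.3)). The list's share of reads was 0.0043 to 0.00733% in Tg and 0.0151 to 0.0391% in FMTg. Without FMTg replicates 4 and 5 neither Hbb-bs nor Hba-a1 passed (adjusted p = 0.0667 and 0.0832) while 2 other members, Hbb-bt and Slc4a1, did. Voom called 1 of the 7, Hbb-bs, 0 passed in the mice with an ovary library, and 4 passed without FMTg replicates 3, 4 and 5. Globin reads enter a bulk sample with its blood, and the part of blood content in this difference was not tested. Among 10 endothelial genes 0 were called by limma or voom, 4 were higher and 0 lower at an unadjusted p under 0.05, and the median was 0.45. Kdr and Plvap, of blood vessel lining, had 552, 585 and 499.8 in Tg and 609, 847, 962, 1054 and 876 in FMTg (0.65 ± 0.20 (adjusted p = 0.335)) and 714, 802 and 990.2 in Tg and 1188, 1199, 1208, 2144 and 1332 in FMTg (0.73 ± 0.22 (adjusted p = 0.335)).

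Islet genes overlapped between the groups, with 0 of 21 called by limma or voom, 1 higher at an unadjusted p under 0.05, and a median of 0.68. Ins2, an insulin gene, had 8602, 7604 and 3825 in Tg and 7778, 12906, 5354, 32122 and 30361 in FMTg (1.14 ± 0.60 (adjusted p = 0.681)) and the glucagon gene Gcg 5097, 5668 and 3935 in Tg and 4876, 13339, 4499.8, 8532 and 7907 in FMTg (0.58 ± 0.33 (adjusted p = 0.721)). For Ins2 the low-numbered mice held the highest values, and without them the list's median was 0.31. Slc2a2, the glucose transporter of beta cells, liver and gut, had 65.7, 98 and 63.1 in Tg and 92.6, 168, 1454, 283 and 221 in FMTg, highest in FMTg replicate 3 (1.79 ± 0.74 (adjusted p = 0.551)). Stellate and fibroblast genes had 0 of 15 called by limma or voom, 2 higher at an unadjusted p under 0.05 and a median of 0.01. The pericyte gene Rgs5 was nearest to the threshold, at 743, 575 and 668 in Tg and 1114, 1494, 966, 1084 and 1386 in FMTg (0.85 ± 0.18 (adjusted p = 0.122)).

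Leukocyte genes gave no call either. Neutrophil genes had a median of -1.77 over 7 tested, with 0 called by limma or voom and 0 at an unadjusted p under 0.05 by limma. S100a9, a calcium-binding protein of neutrophils, had 2557, 1503 and 1738 in Tg and 1655, 994, 938, 0 and 115 in FMTg. The low mean in FMTg came from replicates 4 and 5: without them the list's median was -0.30. Cytokine genes followed the same libraries, with a median of -1.30 over 14 genes and -0.37 without replicates 4 and 5; 0 were called by limma or voom and 1, Ccl2, was lower at an unadjusted p under 0.05. Macrophage genes had a median of 0.38 and 0 of 10 called by limma or voom, with 3 higher at an unadjusted p under 0.05. C1qb, a complement subunit made by macrophages, had 544, 464 and 673 in Tg and 897, 1023, 595, 770.1 and 1403 in FMTg (0.69 ± 0.27 (adjusted p = 0.505)). Without FMTg replicates 3, 4 and 5, 1 of the 10 macrophage genes passed, higher. In that fit 8 of them were higher at an unadjusted p under 0.05, against 9.26% of all genes tested. That count was 3 without FMTg replicates 4 and 5 and 1 in the mice with an ovary library.

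Other stress pathways were also without calls by limma or voom. For the integrated stress response 0 of 14 were under an unadjusted p of 0.05 (median 0.31, and -0.15 without FMTg replicates 4 and 5). Atf4, its central factor, had 2663, 2617 and 2590 in Tg and 3269, 2764, 1894, 4405 and 4278 in FMTg (0.27 ± 0.26 (adjusted p = 0.826)), and Fgf21, a hormone that follows it, had 215, 108 and 60.7 in Tg and 227, 75.4, 55.6, 1780.4 and 1337 in FMTg, high only in the low-numbered mice. Autophagy and lysosome genes had 2 of 15 lower at an unadjusted p under 0.05 (median -0.10), and Map1lc3a, of the autophagosome membrane, had 880.3, 928 and 925 in Tg and 684, 682, 508, 567 and 509.7 in FMTg (-0.63 ± 0.17 (adjusted p = 0.224)). Redox and iron genes had 1 higher and 1 lower of 15 (median 0.00), the lower one being the ferritin gene Ftl1 at 12061, 14384 and 15008 in Tg and 10173, 11479, 11259, 5452 and 6515 in FMTg (-0.68 ± 0.27 (adjusted p = 0.517)). Immediate early genes had 1 lower of 12 (median -0.05), Ier3. Interferon-stimulated genes had 1 higher and 1 lower of 12 (median -0.02, and 0.44 without FMTg replicates 4 and 5).

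**Figure D4:**
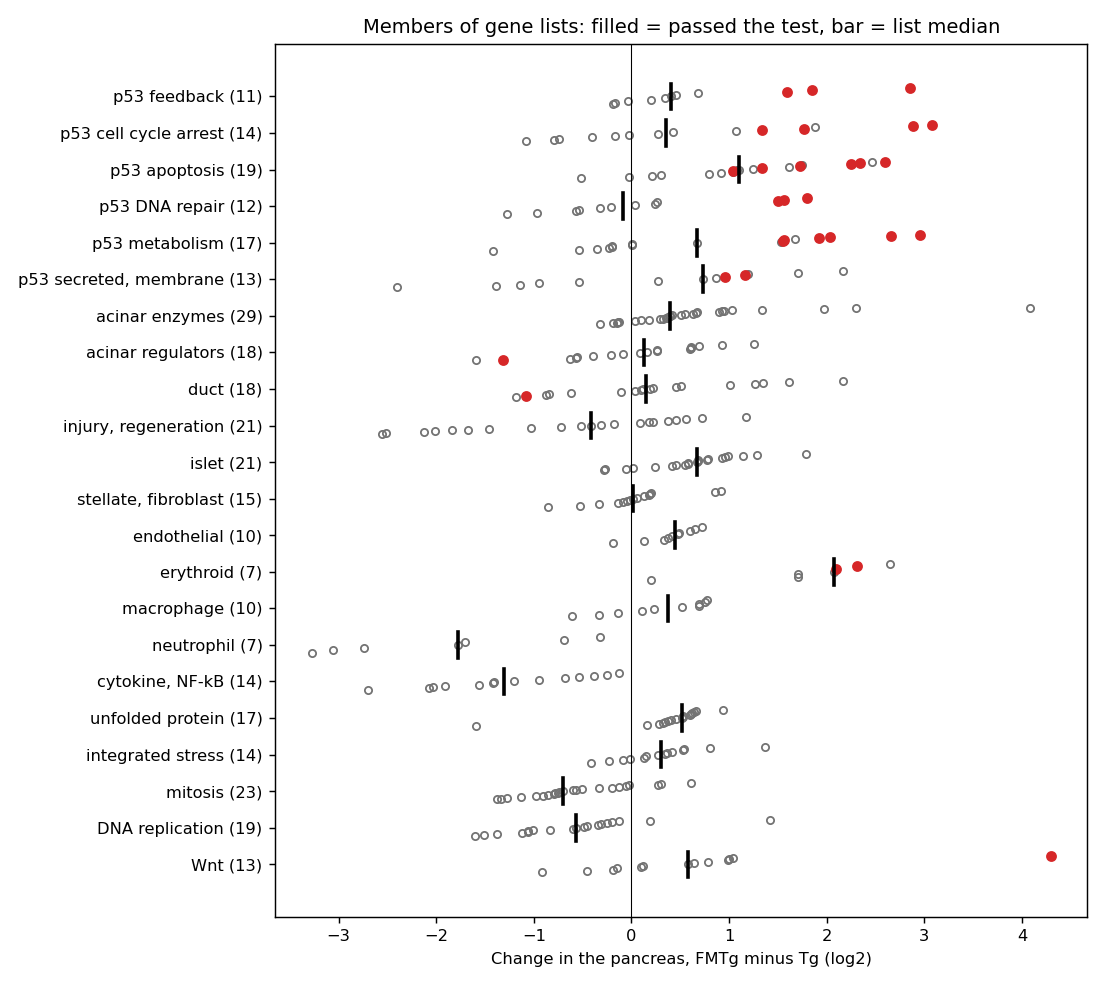
Change in the pancreas (FMTg minus Tg, log2) of each tested member of 22 gene lists, with the number tested in brackets. Filled points passed the test and vertical bars are list medians; calls lie on the p53 lists, the erythroid list, and single genes of the acinar regulator, duct and Wnt lists.

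The pancreas change was then set against the mean change of kidney, ovary, heart and small intestine, in 1 model of all 40 libraries with the mouse as a block. It differed for 207 genes (1.36% of those tested), 111 higher (0.727%) and 96 lower (0.629%) in the pancreas. Of the 64 genes that rose in the pancreas, 20 (31.2%) were among the 111; risers were chosen on the pancreas change, which is also 1 side of this difference. Without the mouse block 53 genes differed and without FMTg replicates 4 and 5 of every tissue 104. This model takes 1 spread for all tissues while the pancreas libraries were more spread, and on simulated reads it made more false calls than its threshold allows.
Among the 10 genes with the smallest p for this difference, 5 had small or opposite changes elsewhere. Genes entered this model by their pancreas level alone, and their levels in the other 4 tissues are not given here. A gene near the table's lowest value in a tissue can change little there. A small change elsewhere therefore does not show that the gene failed to respond. Obp2b changed by 4.80 in the pancreas, against 0.08 for small intestine, 0.48 for heart, -0.09 for kidney and 0.04 for ovary. Its pancreas change exceeded the mean of the others by 4.63 ± 0.57 (adjusted p = 2.87e-05). Fgfr3, a receptor for fibroblast growth factors, had 291, 325 and 343 in Tg and 839.5, 769, 779, 1214 and 1240 in FMTg normalised reads in the pancreas and a change of 1.55 there, against -0.48 for small intestine, -0.28 for heart, -0.24 for kidney and -0.31 for ovary, with the FMTg mean lower in each of the other 4 tissues. Prox1 changed by 2.50 in the pancreas, against -0.04 for small intestine, -0.18 for heart, 0.13 for kidney and 0.44 for ovary, an excess of 2.48 ± 0.40 (adjusted p = 0.0014). Arvcf, a catenin of the p120 family at cell junctions, changed by 1.49 in the pancreas, against 0.03 for small intestine, 0.38 for heart, 0.32 for kidney and 0.07 for ovary (excess 1.28 ± 0.22, adjusted p = 0.00176). Sbspon, a secreted protein with a thrombospondin repeat, had 0, 18.1 and 4.67 in Tg and 86.7, 145, 86.6, 308 and 309 in FMTg in the pancreas and changed by 4.20 in the pancreas, against -0.0058 for small intestine, -0.49 for heart, -0.06 for kidney and 0.10 for ovary; in the pancreas alone it missed the threshold (adjusted p = 0.0637).

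Sp5 and Trp53inp1 were higher in FMTg in all 5 tissues and more so in the pancreas. Sp5 changed by 4.29 in the pancreas, against 0.60 for small intestine, 0.74 for heart, 0.43 for kidney and 0.66 for ovary, an excess of 3.55 ± 0.53 (adjusted p = 0.000643). Trp53inp1 changed by 2.86 in the pancreas, against 1.08 for small intestine, 1.10 for heart, 2.46 for kidney and 0.85 for ovary, an excess of 1.41 ± 0.22 (adjusted p = 0.000804), with the kidney value near that of the pancreas. Trim7 changed by 2.13 in the pancreas, against 0.39 for small intestine, -0.42 for heart, 0.75 for kidney and 0.61 for ovary (excess 1.80 ± 0.29, adjusted p = 0.00115). Sgms1, a sphingomyelin synthase, changed by -1.16 in the pancreas, against -0.23 for small intestine, -0.10 for heart, -0.10 for kidney and -0.41 for ovary. Its change in the pancreas was thus below the mean of the others, with a difference of -0.90 ± 0.15 (adjusted p = 0.0026). Sgms1 did not pass in the pancreas alone (adjusted p = 0.102). All 5 tissues came from the same Tg mice. Of the FMTg pancreas libraries, only replicates 2 and 3 came from mice that gave all 5 tissues. The mice of replicates 4 and 5 otherwise gave only small intestine, and the mouse of replicate 1 gave only the pancreas. The difference between tissues in FMTg is thus partly one between mice.

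**Figure D5:**
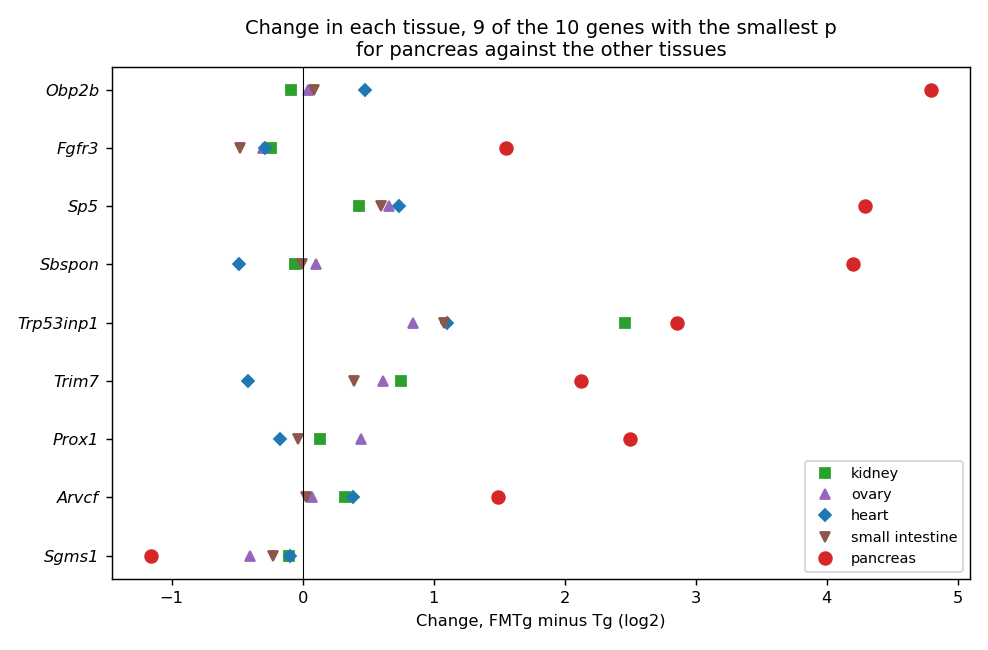
Change in each tissue (FMTg minus Tg, log2) of 9 of the 10 genes with the smallest p for the pancreas change against the mean of 4 other tissues, ordered by that p from the top. The pancreas (red circles) is the highest of the 5 tissues in 8 genes and the lowest in Sgms1.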

How the data were processed

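RNA of 40 mouse libraries was sequenced and 8 pancreas libraries are compared here. Reads were aligned with STAR 2.6.0b to GRCm38 and DESeq2 was used, per the submitters' processing notes; the counting step, annotation and strand setting are not given in the sources used here. The deposited values are variance-stabilised log2 values per gene. Inverting the transformation returned whole reads for 100% of values (tolerance 0.01, largest distance 1.68e-07). limma 3.58.1 with a variance trend (R 4.3.3) compared FMTg with Tg on the deposited log2 values, with Benjamini-Hochberg adjustment over 15262 genes. The pancreas change was set against the other tissues in 1 model of all libraries with a mouse block (correlation 0.258). Both fits were tested on simulated reads. There the pancreas fit kept its share of false calls under the threshold and missed many of the changes put in. The model of all libraries made too many false calls. The simulated libraries of a tissue shared 1 spread per gene, and none stood apart from its group by sex, mouse or cell content. The simulation therefore does not show that false calls are held under the threshold in the real pancreas libraries, which were unequal. Named genes are Mdm2 and Trp53, called genes with the 30 strongest rises or 10 strongest falls, up to 5 members of each list with the smallest p, and the 10 genes that differed most clearly from other tissues (9 of them, since 1 is not reported here); others named were chosen after their values were seen. Members and lists were chosen with earlier results of these data known. Other filters, weights, scalings, voom, and fits without single libraries or groups of mice were tried. Intervals and floors cover counting error only. Replicates are labelled biological replicates.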

Additional observations from a re-analysis of the deposited data

Results flagged for a closer look

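Of 103 values tested for a single library far from the others of its group, 3 stood out, where chance gives about 5% of groups. The share of reads on erythroid genes was 0.0391% in FMTg replicate 2, above 0.0205% in the next library. The shares on enterocyte and hepatocyte genes were 0.0363% and 0.0643% in FMTg replicate 3. For 9 of the genes named the pancreas change differed from the mean change of the 4 other tissues by a test of that difference. It was larger by 4.63 for Obp2b, 4.30 for Sbspon, 3.55 for Sp5, 2.48 for Prox1, 1.85 for Fgfr3, 1.80 for Trim7, 1.41 for Trp53inp1 and 1.28 for Arvcf. It was lower for Sgms1, with a difference of -0.90.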

How the results depend on the processing

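The count of called genes, 68 (64 higher, 4 lower), was 67 (63 and 4) with no filter, 71 (67 and 4) with a stricter one and 52 (48 and 4) by voom. It was 10 (10 and 0) with no variance trend, 568 (431 and 137) with library weights, 390 (252 and 138) in one model of all 40 libraries, and 38 (35 and 3) with library medians centred. Without the low-numbered mice it was 109 (98 and 11), and in the mice with an ovary library 2 (2 and 0). Leaving out 1 library in turn gave 9 to 93 genes, 9 to 85 higher and 0 to 8 lower. Without FMTg replicate 3 and the low-numbered mice, an alternative added after seeing the data, it was 183 (160 and 23). With the replicate block over replicates 1 to 3 it was 0 (0 and 0, with 43 p53 list genes higher and 3 lower at an unadjusted p under 0.05); same-numbered libraries did not deviate together (correlations of -0.322, -0.0248 and -0.321), so the numbers do not pair them. Library weights were 0.0865, 0.287 and 0.63 for FMTg replicates 4, 5 and 3 and at least 1.999 for the others. The 207 genes that differed from other tissues (111 higher) became 53 (33) without the mouse block, 104 (67) without FMTg replicates 4 and 5 of every tissue and 666 (431) with library weights (the estimate of these weights stopped before reaching its tolerance). The Trp53 difference, -0.04, was 0.088 with library weights, 0.083 in the mice with an ovary library, -0.17 to 0.038 with 1 library left out in turn (0.038 without FMTg replicate 3), and 0.163 without that library and the low-numbered mice. No called gene changed direction under any alternative run; the causes of these shifts were not tested. Depth limits the low genes: 1 read in FMTg replicate 4 is worth 6.16 normalised reads, against 1.63 to 2.86 in the others.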

Other observations

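Subunits of the proteasome, the complex that degrades ubiquitylated proteins such as p53, were mostly lower in FMTg; this list was added after the values were seen. Of 37 tested 0 were called by limma or voom, 20 were lower and 0 higher at an unadjusted p under 0.05, and in 22 every FMTg library was below every Tg library (5.05% of all genes tested). The changes ran from -1.42 to -0.01 with a median of -0.58, and -0.37 without the low-numbered mice. Psmd12, of the lid, had 1352, 1421 and 1411 in Tg and 834, 945, 792, 511 and 636 in FMTg (-0.93 ± 0.20 (adjusted p = 0.13)), and Psmd3, also of the lid, had 2023, 2099 and 2212 in Tg and 1425, 1488, 1492, 1152 and 1426 in FMTg (-0.60 ± 0.13 (adjusted p = 0.132)). The ATPase gene Psmc4 of the base had 1270.1, 1318 and 1289 in Tg and 910.5, 996, 946, 844 and 899 in FMTg (-0.49 ± 0.13 (adjusted p = 0.217)). Without FMTg replicate 3 and the low-numbered mice 2 of the 37 passed, lower. Of 8 subunits of the cytosolic chaperonin 4 were below all Tg libraries (median -0.29), of 20 tRNA synthetases 2 (median -0.15) and of 37 genes of ribosome processing 7 (median -0.27), with 0 called by limma or voom in these lists and 4, 4 and 4 lower at an unadjusted p under 0.05.

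Lists for cells that the dissected tissue could hold besides those described gave 0 calls by limma or voom. Adipocyte genes had 0 of 8 under an unadjusted p of 0.05 (median 0.46), and mesothelial genes had 2 of 4 higher (median 0.65), with Upk3b at 172, 144 and 105 in Tg and 223, 340.2, 188, 431 and 704 in FMTg (1.25 ± 0.43 (adjusted p = 0.423)). Enterocyte genes had 0 of 6 under that p, and the sucrase gene Sis had 96.4, 67 and 7.01 in Tg and 43.4, 73.5, 1642, 308 and 126 in FMTg, highest in FMTg replicate 3 and above all Tg libraries in replicates 4 and 5 too. Of 4 hepatocyte genes 2 were higher at that p. Ttr (transthyretin), which islets also make, had 267, 382 and 280.2 in Tg and 648, 1709, 644, 1047 and 1272 in FMTg, with all FMTg libraries above Tg (1.68 ± 0.33 (adjusted p = 0.0914)). Schwann and neural genes had 0 of 6 under that p (median -0.25, and 0.45 without the low-numbered mice), and T cell genes 0 of 7 (median -0.56).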
